A study of Mus musculus with 8 samples.

Results

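The 10 genes described here, Pi16, Dpp4, Cd34, Cd248, Clec3b, Dpt, Tnxb, Fbn1, Sema3c and Abca8a, are genes that mark the fibroblast progenitors of the adventitia, the outer connective tissue layer around blood vessels. They were taken by name as a fixed list, although earlier results of these data were known when the list was made, from 49315 genes counted in 8 bulk RNA-seq libraries of mouse bone marrow stromal cells. All mice were untreated wild type C57BL/6J, and the labels give an age of 6 weeks for every library. The study's methods name C57BL/6JJcl mice and also transgenic C57BL/6 mice that express EGFP, with an age range that extends beyond this. The methods do not say which of the 2 gave the bulk RNA-seq libraries. Of the 8 libraries, 7, clusters 1 to 7, were populations sorted on surface antigens chosen from single-cell data of the Sca-1+ PDGFR-α+ fraction of the marrow. The eighth is labelled as input cells of the bone marrow. The gates were read from the study's sorting plots and may be incomplete. As read there, all 7 populations lacked CD31, CD45 and Ter119. Cluster 1 was taken as CD24- CD39+ Sca-1+, cluster 2 as Ly-6C- CD24- CD39-, cluster 3 as Ly-6C+ CD24+ without CD39 or CD54, and cluster 4 as Ly-6C- CD24- CD54+. Cluster 5 was taken as CD54+ CD121b- without CD24 or Ly-6C, cluster 6 as CD24+ Sca-1- CD39-, and cluster 7 as CD54- Sca-1+ without CD24 or Ly-6C.

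Each population was sequenced as 1 library, so no spread between mice, sorts or preparations was measured and no test of a difference between populations was possible. Levels are given as RPKM, the read count scaled to the exon length of the gene and to the total count of the library. The exon length can exceed that of a transcript, so levels of different genes compare only roughly. For Cd34 it was 7290 bases, with 2621 in its longest coding transcript, and for Dpt 1724, with 1636. The intervals beside ratios are exact binomial 95% intervals of the reads. They cover counting error only and compare libraries, not populations. In bulk libraries, fewer cells of a type and less RNA per cell cannot be told apart. Whether the sorted cells of a library came from 1 mouse or were pooled is not given in the sources used here.

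The libraries held between 12833648 counted reads (cluster 5) and 33238133 (cluster 7), with 24205863, 25349917, 27102715 and 32549319 in clusters 1 to 4 in turn, 31669132 in cluster 6 and 20162876 in the input. The cluster 5 library stood apart, because 34.8% of its reads fell on Rn18s-rs5, Lars2 and the mmu-mir-689-2 locus, 3 loci in all, against 10.4% in cluster 2 and at most 1.91% in each of the other libraries. Scaling by trimmed mean of M values (TMM) raised log2 levels by 0.44 in cluster 5 and by 0.37 in cluster 6, lowered them by 0.68 in the input and by 0.14 in cluster 1, and moved the other 4 by less than 0.1. Levels are scaled to the total count unless TMM is named, and comparisons with the input depend most on this choice.

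The transcripts of several sorting antigens did not follow the gates as read. Cd24a, which encodes CD24, had an RPKM of 49.9 in cluster 3, the lowest of the 7 sorted libraries, although cluster 3 was sorted as CD24+, and 137 in cluster 6, the highest. Icam1, which encodes CD54, had an RPKM of 149.6 in cluster 7, sorted as CD54-, second to 237 in cluster 4 and above 44.5 in cluster 5, sorted as CD54+. Entpd1, which encodes CD39, had an RPKM of 13.9 in cluster 7 and 8.55 in cluster 1, the population sorted as CD39+. Of the 2 Ly-6C genes, Ly6c1 was highest in cluster 3 (409.9 RPKM), sorted as Ly-6C+, but Ly6c2 was highest in cluster 7 (116 RPKM), sorted without Ly-6C, and had 36.9 in cluster 3. Ly6a, which encodes Sca-1, was lowest in cluster 6 (4.98 RPKM), sorted as Sca-1-. The pan-mesenchymal gene Col1a1 had at least 1962 RPKM in each sorted library, and the neutrophil gene S100a9 had between 4834 (cluster 3) and 11033 (cluster 5), with 14745 in the input.

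Adventitial fibroblasts surround vessels in most organs, and cells that carry Pi16 and Dpp4 are described as progenitors from which more specialised fibroblasts can arise. They carry surface proteins such as Cd34 and secrete matrix proteins that organise collagen and elastic fibres. In the bone marrow the larger vessels have such a sheath, while the stroma between the sinusoids consists mainly of reticular cells that produce Cxcl12, and bone surfaces carry osteoblasts. None of the 10 genes is restricted to fibroblasts: Cd34 is also carried by endothelial and haematopoietic progenitor cells, and Dpp4, also known as CD26, by T cells.

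RefSeq (GRCm38.p6) promoter windows were given for 8 of the 10 genes: Pi16, Dpp4, Cd34, Dpt, Tnxb, Fbn1, Sema3c and Abca8a. The 250 bases before the RefSeq start are printed for 4 of them because their levels below take 4 different shapes over the sorted libraries. Dpp4 was far higher in cluster 3 than in any other sorted library, and Tnxb was high in both cluster 3 and cluster 1. Among the sorted libraries, Cd34 was highest in cluster 1 and next in cluster 3, and Dpt was highest in cluster 1 and next in cluster 4. Capitals mark matches to any of 6 motifs searched on both strands: TATAAA (the TATA box), TGANTCA (the letters bound by AP-1 factors), GGAATG (bound by TEAD factors), TGTTTAC (bound by forkhead factors), CCGCCC (bound by Sp1) and CAGCTG (an E-box). The windows, each written 5′ to 3′ on the gene's own strand, lie at chr2:62412232-62412481 on the minus strand for Dpp4, chr17:34670285-34670534 on the plus strand for Tnxb, chr1:194938571-194938820 on the plus strand for Cd34 and chr1:164796413-164796662 on the plus strand for Dpt.
Dpp4: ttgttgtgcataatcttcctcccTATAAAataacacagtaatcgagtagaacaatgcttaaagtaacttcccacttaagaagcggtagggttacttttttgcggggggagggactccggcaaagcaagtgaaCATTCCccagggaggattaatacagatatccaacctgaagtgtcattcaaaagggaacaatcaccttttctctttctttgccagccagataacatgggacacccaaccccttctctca
Tnxb: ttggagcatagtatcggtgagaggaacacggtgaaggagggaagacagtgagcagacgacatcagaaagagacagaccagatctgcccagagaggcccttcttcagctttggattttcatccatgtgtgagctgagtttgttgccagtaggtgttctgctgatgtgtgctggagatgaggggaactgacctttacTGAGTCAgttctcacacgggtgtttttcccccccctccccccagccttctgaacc
Cd34: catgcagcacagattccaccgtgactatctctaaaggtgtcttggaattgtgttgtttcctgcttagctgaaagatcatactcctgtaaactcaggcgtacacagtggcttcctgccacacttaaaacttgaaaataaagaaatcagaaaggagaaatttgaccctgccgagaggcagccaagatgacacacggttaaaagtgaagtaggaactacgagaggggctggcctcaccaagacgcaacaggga
Dpt: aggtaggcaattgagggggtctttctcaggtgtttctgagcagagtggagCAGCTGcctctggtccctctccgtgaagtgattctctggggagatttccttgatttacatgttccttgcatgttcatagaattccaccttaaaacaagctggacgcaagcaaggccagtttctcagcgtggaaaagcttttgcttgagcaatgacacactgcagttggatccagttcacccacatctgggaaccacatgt

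No motif was common to these windows. The Dpp4 window held TATAAA from base -227 to -222 and, read on the opposite strand, GGAATG from -118 to -113, counted back from the RefSeq start. TATAAA was in 12.4% and GGAATG in 12.6% of 32851 RefSeq promoter windows of the same length. The Tnxb window held TGANTCA from -55 to -49, against 6.75% of all windows. The Dpt window held CAGCTG from -200 to -195, against 13.0%. The Cd34 and Pi16 windows held none of the 6. Fbn1 and Sema3c held CCGCCC (32.7% of all windows), Abca8a held GGAATG, and TGTTTAC (3.17%) was in none of the 8. Sema3c stood at 78.4% GC with 39 CpG dinucleotides, where the median over all windows was 52.4% and 6. The other 7 lay between 43.2% (Abca8a) and 59.2% (Fbn1). All 250 bases of the Sema3c and Fbn1 windows, 41 of the Abca8a window, 19 of the Dpt window, 5 of the Pi16 window and 2 of the Cd34 window lie inside the span of the counted gene, whose annotated start lies farther upstream.

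All 10 genes passed an RPKM of 2 in at least 1 sorted library, as did 12360 genes in all. Their summed RPKM was highest in cluster 1 (995), followed by cluster 3 (788), cluster 4 (604) and cluster 7 (403), and was 483 in the input. Clusters 5, 2 and 6 lay far below, at 113, 96.1 and 20.6. Under TMM cluster 7 passed the input for the sum of Pi16, Dpp4, Cd34 and Cd248 (109 and 99.7 RPKM). It also did so for the sum of Clec3b, Dpt, Tnxb, Fbn1 and Sema3c (258 and 198 RPKM). Abca8a was higher in cluster 7 than in the input under both scalings. As a share of all reads, the 10 genes took 0.376% in cluster 1, 0.330% in cluster 3 and 0.0132% in cluster 6. Of the 10, 5 had their highest sorted level in cluster 1 (Pi16, Cd34, Clec3b, Dpt and Abca8a), where 21.3% of the 12360 genes had theirs. The other 5 had it in cluster 3 (Dpp4, Cd248, Tnxb, Fbn1 and Sema3c), against 9.85% of genes. Under TMM, Clec3b moved to cluster 3, giving 4 and 6, against 9.98% and 10.1% of genes. The lowest level was in cluster 6 for 9 of the 10 genes (25.5% of all genes) and in cluster 5 for Dpp4 (46.3%), under TMM as well, where the shares were 17.0% and 26.4%.

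**Figure D1:**
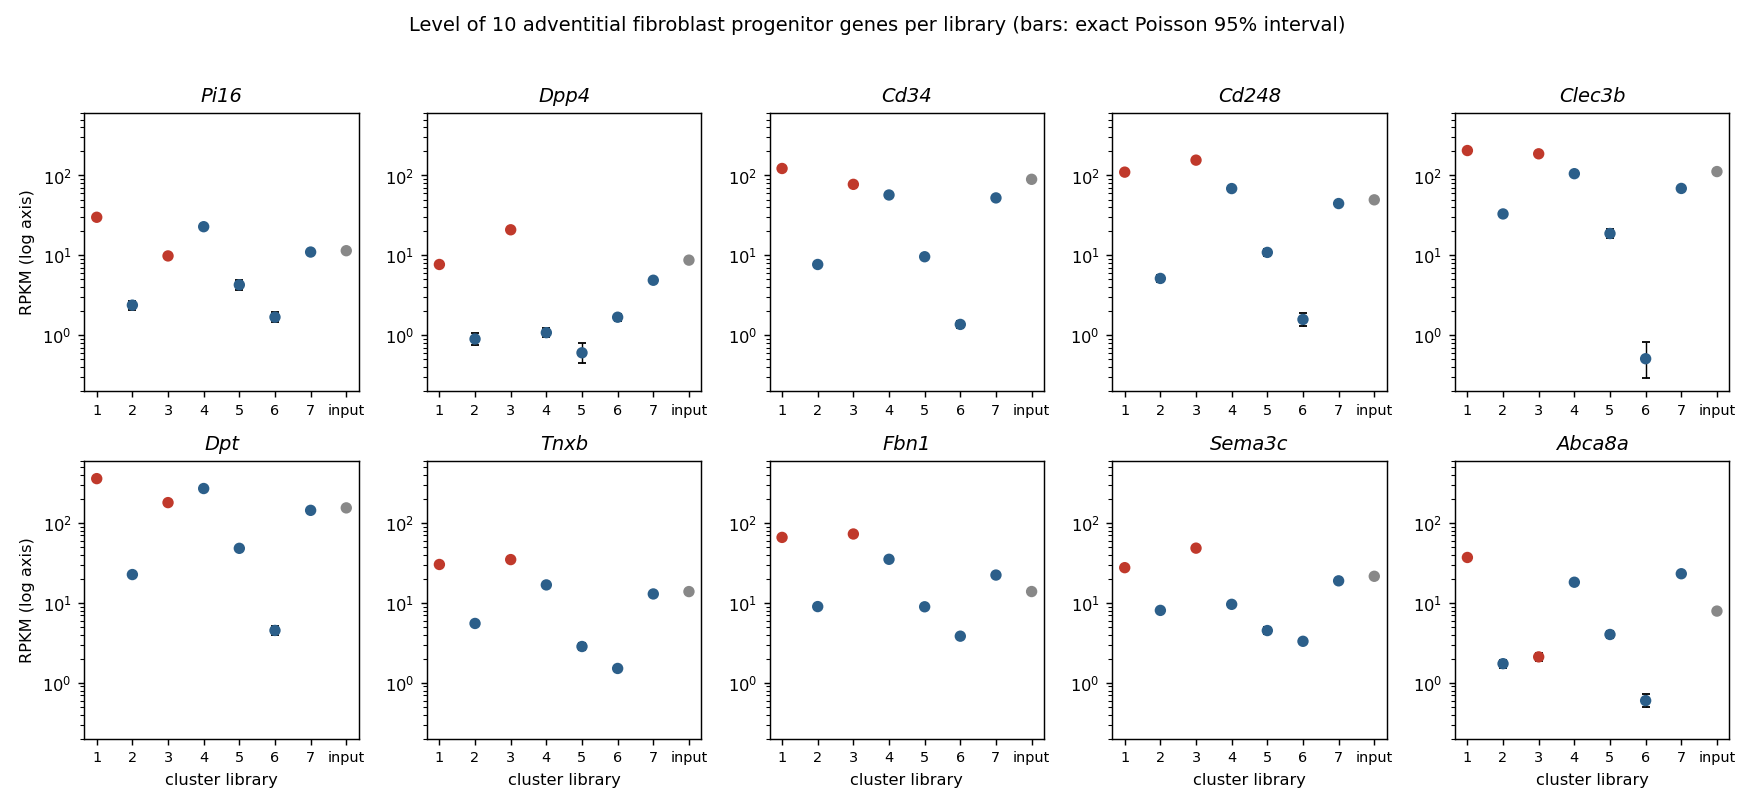
RPKM on a log axis of each of the 10 genes in the 7 sorted cluster libraries and the input (grey), 1 panel per gene and 1 library per point, with bars for exact Poisson 95% intervals for counting error only. Among the sorted libraries, clusters 1 and 3 (red) are the highest pair for 7 of the 10 genes, and cluster 6 is the lowest for 9.

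The first 4 genes encode proteins of the cell surface or anchored near it. Pi16, a peptidase inhibitor that marks fibroblast progenitors in many tissues (ENSMUSG00000024011, chr17:29318877-29329413, plus strand, GRCm38), had an RPKM of 30.0, 2.38, 9.85, 22.9, 4.28, 1.69 and 11.0 in clusters 1 to 7 in turn and 11.4 in the input. Its highest libraries were thus clusters 1 and 4, and cluster 3 lay below the input by total count but above it under TMM (10.01 and 7.17 RPKM). Cluster 1 exceeded cluster 4 by 1.31 times (95% interval 1.25 to 1.38) and cluster 6 by 17.8 times (15.5 to 20.5).

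Dpp4, a membrane peptidase that trims chemokines and incretins (ENSMUSG00000035000, chr2:62330073-62412231, minus strand), had an RPKM of 7.69, 0.899, 20.9, 1.08, 0.604, 1.68 and 4.88 in clusters 1 to 7 in turn and 8.72 in the input. Cluster 3 was the single sorted library above the input by total count, joined by cluster 1 under TMM (6.97 RPKM, 5.46 in the input), and cluster 4, second for Pi16, was among the 3 lowest. Cluster 3 exceeded cluster 1 by 2.72 times (2.54 to 2.90) and cluster 5 by 34.6 times (26.1 to 46.9). Dpp4 was the 1 gene of the 10 whose RPKM + 1 in 1 library was more than 2-fold that in each other sorted library, a pattern that 0.736% of genes above RPKM 2 in cluster 3 showed. Clusters 4 and 2 could not be ordered, since their ratio was 1.20 (0.969 to 1.49).

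Cd34, a sialomucin of progenitor cells (ENSMUSG00000016494, chr1:194938819-194961279, plus strand), had an RPKM of 122, 7.69, 77.4, 57.0, 9.62, 1.37 and 52.4 in clusters 1 to 7 in turn and 89.5 in the input. Clusters 1, 3, 4 and 7 lay above 50 and the other 3 below 10. Cluster 1 exceeded cluster 3 by 1.58 times (1.55 to 1.61) and cluster 6 by 89.3 times (79.9 to 100.1). Cluster 1 was the single sorted library above the input by total count, while clusters 1, 3 and 4 lay above it under TMM.

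Cd248, or endosialin, a receptor of stromal and perivascular cells (ENSMUSG00000056481, chr19:5068078-5070637, plus strand, 1 exon), had an RPKM of 110.0, 5.15, 155, 68.5, 10.9, 1.58 and 44.5 in clusters 1 to 7 in turn and 49.6 in the input. It shared with Cd34 the 4 higher and 3 lower sorted libraries, but the first 2 were exchanged. Cluster 3 exceeded cluster 1 by 1.41 times (1.37 to 1.46) and cluster 6 by 98.5 times (82.7 to 118).

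Another 5 genes encode secreted proteins, 4 of them of the extracellular matrix or plasma. Clec3b, or tetranectin, a plasminogen-binding lectin (ENSMUSG00000025784, chr9:123150946-123157432, plus strand), had an RPKM of 205, 33.0, 187, 105, 18.8, 0.509 and 68.8 in clusters 1 to 7 in turn and 112 in the input. Clusters 1 and 3 were nearly level, at a ratio of 1.10 (1.06 to 1.14) by total count and 0.979 under TMM, so their order rests on the scaling. The gap to cluster 6, where 16 reads were counted, was 403 times (248 to 705) and was the widest of the 10 genes.

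Dpt, or dermatopontin, which binds decorin and helps collagen fibrils assemble (ENSMUSG00000026574, chr1:164796644-164824266, plus strand), had an RPKM of 359, 22.6, 179.8, 269.9, 48.2, 4.52 and 144 in clusters 1 to 7 in turn and 155 in the input. Dpt had the highest RPKM of the 10 genes in clusters 1, 4, 5, 6 and 7 and in the input, a rank that depends on the exon lengths used. Like Pi16, Dpt had clusters 1 and 4 as its highest pair. Cluster 1 exceeded cluster 4 by 1.33 times (1.30 to 1.36) and cluster 6 by 79.3 times (70.0 to 90.3).

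Tnxb, or tenascin X, which links collagen fibrils and supports their spacing (ENSMUSG00000033327, chr17:34670535-34719815, plus strand), had an RPKM of 30.3, 5.53, 34.8, 16.8, 2.85, 1.51 and 12.9 in clusters 1 to 7 in turn and 13.9 in the input. Fbn1, or fibrillin 1, the main protein of the microfibrils that carry elastin and hold latent TGF-beta (ENSMUSG00000027204, chr2:125300594-125507993, minus strand), had an RPKM of 66.0, 8.99, 72.8, 35.1, 8.94, 3.84 and 22.3 in clusters 1 to 7 in turn and 13.9 in the input. By total count both genes ordered the sorted libraries alike, from cluster 3 through 1, 4, 7, 2 and 5 to 6; under TMM clusters 2 and 5 changed places for Fbn1. Cluster 3 exceeded cluster 1 by 1.15 times (1.12 to 1.18) for Tnxb and by 1.10 times (1.08 to 1.12) for Fbn1. For Fbn1, clusters 2 and 5 could not be ordered, at a ratio of 1.01 (0.943 to 1.07). Of the 12128 exon bases of Fbn1, 2442 overlapped the exons of Gm9913 on the other strand, which had at most 69 reads in a library.

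Sema3c, a secreted guidance cue that acts through neuropilins and plexins (ENSMUSG00000028780, chr5:17574281-17730268, plus strand), had an RPKM of 27.6, 8.06, 48.4, 9.60, 4.51, 3.31 and 18.9 in clusters 1 to 7 in turn and 21.5 in the input. Clusters 3 and 1 lay above the input and the other 5 below it by total count, and under TMM cluster 7 also lay above it (18.3 RPKM, 13.48 in the input). As for Dpp4, cluster 7 followed clusters 3 and 1 among the sorted libraries, and cluster 4 lay lower. Cluster 3 exceeded cluster 1 by 1.76 times (1.69 to 1.82) and cluster 6 by 14.6 times (13.6 to 15.8).

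Abca8a, a lipid transporter of the ATP-binding cassette family A (ENSMUSG00000041828, chr11:110025634-110095978, minus strand), had an RPKM of 37.0, 1.74, 2.11, 18.1, 4.03, 0.599 and 23.2 in clusters 1 to 7 in turn and 7.90 in the input. Its levels were high in clusters 1, 7 and 4, while cluster 3 lay below cluster 5. Cluster 1 exceeded cluster 7 by 1.60 times (1.54 to 1.66) and cluster 6 by 61.8 times (51.5 to 74.7). Of the 50-base words of its longest coding transcript, 1.89% (105 of 5570) also occurred in a coding transcript of Abca8b. Those of the other 9 genes occurred in no coding transcript of another gene, read on the same strand. Non-coding genes and the opposite strand were not searched.

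Of the 60 neighbouring pairs in these 10 orders, 58 differed beyond counting error. Clusters 1 and 3 both lay above the other 5 sorted libraries for 7 genes, all but Pi16, Dpt and Abca8a, a pattern of 8.72% of all genes by total count and 5.5% under TMM. Clusters 2, 5 and 6 were the 3 lowest for 8 genes, all but Dpp4 and Abca8a, against 20.5% of genes and 9.51% under TMM. The number of sorted libraries above the input ran from 1 for Dpp4 and Cd34 to 4 for Fbn1 by total count, and under TMM it was 2 for Dpp4, 3 for Cd34 and 6 for Fbn1.

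Clusters 1 and 3 were next compared with the other libraries because they held the highest values of the 10 genes. For the 5 genes highest in the library named, the direction in the comparisons between sorted libraries was therefore set by that choice, and the counts are a description. Counted as more than 2-fold on RPKM + 1, with the larger RPKM above 2, cluster 1 exceeded clusters 2, 5 and 6 for all 10 genes, where 10.6%, 23.9% and 21.5% of genes tested did so (8.27%, 6.7% and 11.4% under TMM, with the same count). Against cluster 6 the median log2 difference of the 10 genes was 4.18, with 0.42 over all genes, and against cluster 2 it was 2.97, with 0.17. Cluster 1 exceeded cluster 7 for 7 genes (5.94% of all genes, 4.78% under TMM, median log2 difference 1.25) and cluster 4 for 3, Dpp4, Sema3c and Cd34 (3.71%, 0.92); under TMM 2 genes passed, against 2.57%. No gene of the 10 was more than 2-fold lower in cluster 1 than in cluster 2 (6.64% of all genes), 4 (3.41%), 5 (3.99%), 6 (5.82%) or 7 (4.76%). Cluster 3 exceeded clusters 2, 5 and 6 for 9 genes each, all but Abca8a, where 8.11%, 19.6% and 12.9% of all genes did so (8.35%, 8.21% and 7.9% under TMM). It exceeded cluster 4 for 5 genes, Dpp4, Cd248, Tnxb, Fbn1 and Sema3c (4.57%), and lay below it for Pi16 and Abca8a (7.26%). Under TMM, Tnxb no longer passed against cluster 4, leaving 4 genes (4.51%), and 8 genes were higher and Abca8a lower (9.41%) than in cluster 5. It exceeded cluster 7 for 6 genes (5.25%, 5.84% under TMM), and Abca8a was lower in cluster 3 than in cluster 7 (9.88%).

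Against the input, cluster 1 was more than 2-fold higher for 6 genes (5.53% of all genes) and lower for none (41.6%). The median log2 difference of the 10 genes was 1.10, where that of all genes was -0.67. Fbn1 and Abca8a stood farthest above the input in cluster 1, at 4.76 and 4.69 times its RPKM, and Dpp4 lay at 0.882 times. Under TMM these ratios were 6.88, 6.78 and 1.28 (1.17 to 1.39), so the direction for Dpp4 turned. Cluster 3 was higher than the input for 5 genes (4.33%) and lower for Abca8a (46.5%). Under TMM the counts were 7 for cluster 1, and 6 higher and none lower for cluster 3, with 13.4% and 13.8% of all genes higher and 29.5% lower in cluster 3.

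The 2 libraries in which the genes were highest differed from each other gene by gene. The RPKM in cluster 3 over that in cluster 1 ran from 2.72 for Dpp4 through Sema3c (1.76), Cd248 (1.41), Tnxb (1.15), Fbn1 (1.10), Clec3b (0.910) and Cd34 (0.633) to 0.501 for Dpt, 0.328 for Pi16 (0.306 to 0.352) and 0.0570 for Abca8a (0.0511 to 0.0635). Pi16 and Dpp4, often named together for these progenitors, lay on opposite sides. Each ratio differed from 1 beyond counting error, 5 above it and 5 below, where 19.1% of all genes lay above and 49.7% below (under TMM 29.7% and 35.3%), and all became larger under TMM, where Clec3b reached 1.02 and was within counting error of 1. More than 2-fold differences were counted for Dpp4, higher in cluster 3 (2.84% of all genes), and for Pi16 and Abca8a, higher in cluster 1 (5.69%). The summed RPKM of the osteoblast markers was 25981 in cluster 3, with 14020 from Bglap, and 879.7 in cluster 1, with 254 from Bglap. The part of these markers in the comparison was not tested.

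**Figure D2:**
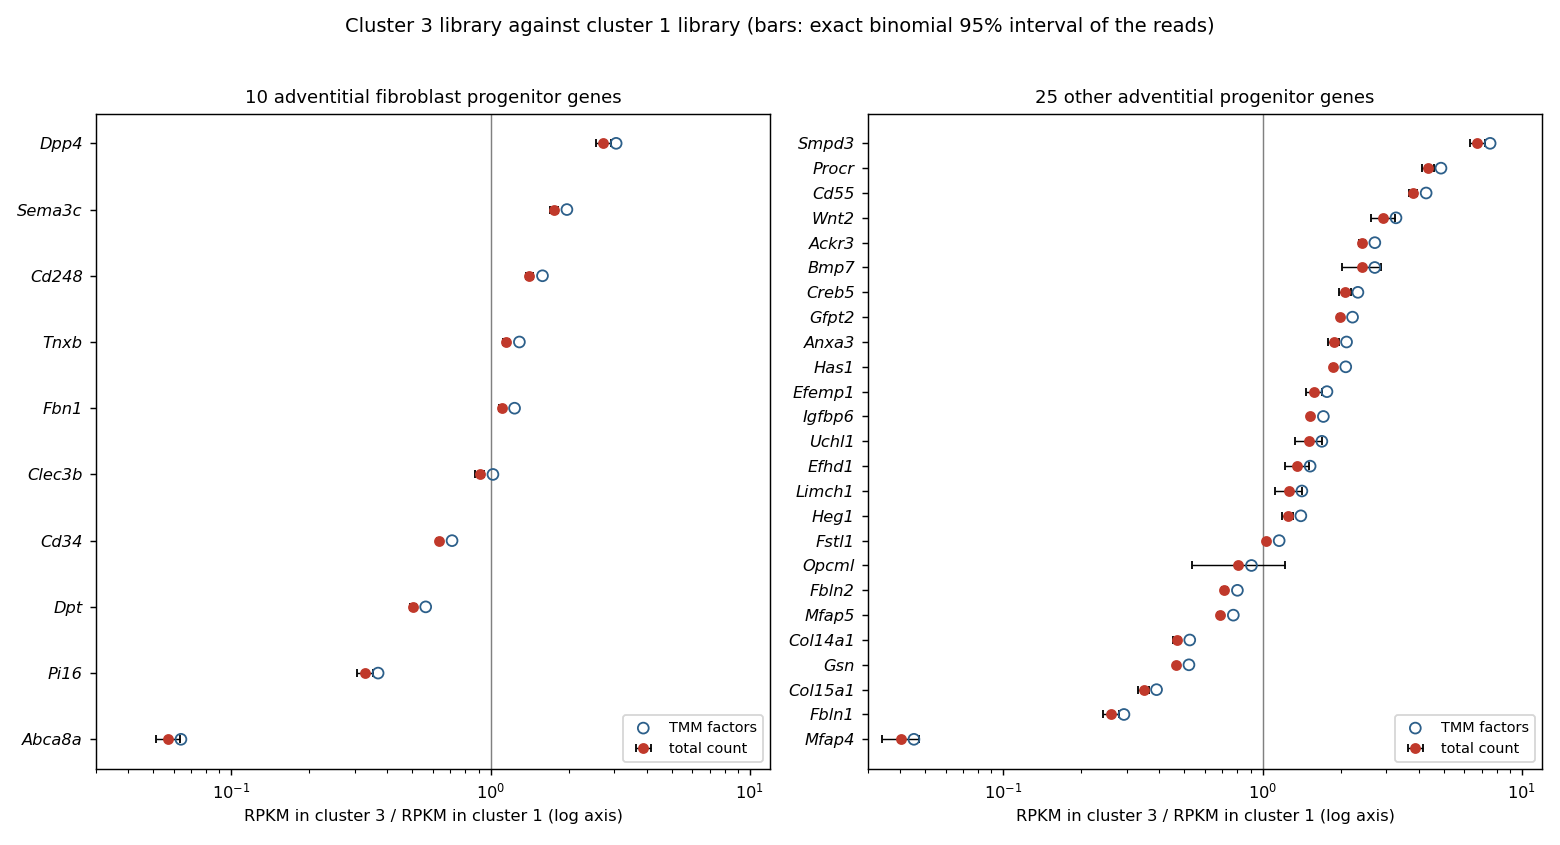
RPKM in cluster 3 over RPKM in cluster 1 on a log axis for the 10 genes and for 25 other adventitial genes, 1 library each, with filled red points for the total count, open blue points for TMM scaling and bars for exact binomial 95% intervals of the reads (counting error only). Among the 10 genes the ratio runs from 0.0570 for Abca8a to 2.72 for Dpp4, with Pi16 at 0.328.

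Clusters 4 and 7, with intermediate levels, also separated the genes. Cluster 1 exceeded cluster 4 by 7.13 times for Dpp4 (6.17 to 8.27) and by 2.88 times for Sema3c, but by 1.31 times for Pi16 and 1.33 times for Dpt. Against cluster 7 the same ratios were 1.58 for Dpp4, 1.46 for Sema3c, 2.72 for Pi16 and 2.49 for Dpt. The smallest ratios to cluster 4 were thus those of Pi16 and Dpt, and the smallest to cluster 7 those of Sema3c and Dpp4.

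Over the 7 sorted libraries the log2(RPKM + 1) levels of the 10 genes had a mean Pearson r of 0.808 (median 0.881) across their 45 pairs. These 7 points share library depth and scaling with each other for all genes, and the values are a description. The closest pair was Tnxb and Fbn1 (r = 0.986), followed by Cd248 and Fbn1 (0.982) and Cd34 and Dpt (0.980). Dpp4 was closest to Sema3c (0.908) and farthest from Abca8a (0.186), and its r with Pi16 was 0.449. Cd34 had the highest mean r with the other 9 genes (0.894), and Abca8a (0.624) and Dpp4 (0.609) the lowest.

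**Figure D3:**
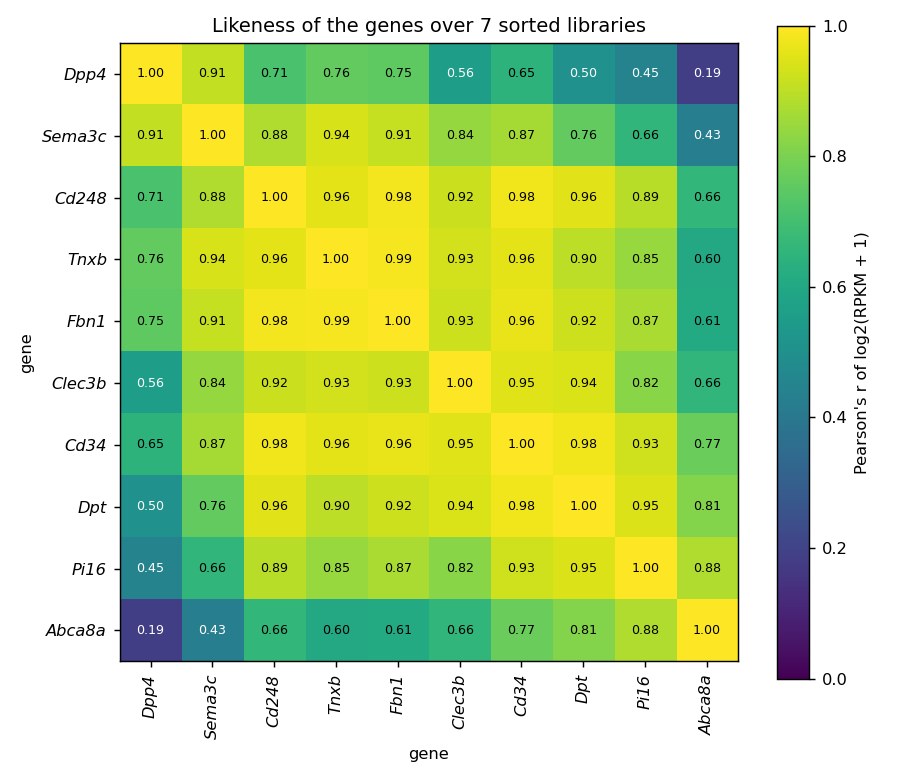
Pearson's r of log2(RPKM + 1) between each pair of the 10 genes over the 7 sorted libraries (colour and printed value). Dpp4 and Abca8a, at opposite corners, have the lowest r (0.186), and Tnxb and Fbn1 have the highest between different genes (0.986).

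The mean profile of the 10 genes, each standardised over the 7 sorted libraries, was compared with the 8726 genes that varied more than 2-fold. Of these, 450 (5.16%) had an r above 0.9, including 8 of the 10 genes, which form the profile. Leaving out those 10 genes, the 10 most alike were Dtnbp1 (r = 0.995), 5430435G22Rik (0.995), Lgals1 (0.994), Fam124a (0.992), Abcd4 (0.992), Tmod2 (0.991), Fstl1 (0.990), Axl (0.990), Dpysl3 (0.990) and Mtap6 (0.989). Lgals1 encodes a galectin, Fstl1 a secreted glycoprotein and Axl a receptor tyrosine kinase. Axl had an RPKM of 141, 22.1, 155, 73.3, 28.6, 11.4 and 96.1 in clusters 1 to 7 in turn, and so was high in the same 4 libraries. Of the genes for the sorting antigens, Ly6a (r = 0.948) and Ly6c1 (0.944) were close to the profile, Cd24a was opposite (-0.913), and Icam1 (0.398), Entpd1 (0.308), Ly6c2 (-0.147) and Il1r2 (-0.175) lay between. Ly6a had an RPKM of 589.8, 78.3, 931, 431, 87.0, 4.98 and 226 in clusters 1 to 7 in turn and 461 in the input. Since the proteins of all 7 genes were used to sort, they are no independent measure of the populations. Of the pan-mesenchymal genes, Col3a1 (r = 0.966), Dcn (0.869), Pdgfra (0.866), Pdgfrb (0.739) and Lum (0.532) varied in the direction of the profile. Col1a2 (-0.147) and Col1a1 (-0.532) did not.

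A list of 25 other genes of adventitial fibroblasts gave a second view, with 24 above RPKM 2 in at least 1 sorted library and Opcml below it. Of the 24, 15 were highest in cluster 3 (9.85% of all genes), among them Wnt2, Cd55, Procr, Igfbp6, Efemp1 and Has1, and 4 in cluster 1 (Mfap5, Fbln2, Col14a1 and Col15a1; 21.3%). Mfap4, Fbln1 and Gsn were highest in cluster 4 (8.95%), Bmp7 in cluster 2 (22.8%) and Smpd3 in cluster 6 (7.1%). None was highest in cluster 5 (4.73%) or cluster 7 (25.3%). Under TMM Bmp7 moved to cluster 6 and the other counts were the same, while the shares of all genes became 9.98%, 19.9%, 10.1%, 10.4%, 11.6%, 20.9% and 17.1% in clusters 1 to 7 in turn.

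Wnt2, a ligand of the Wnt pathway, had an RPKM of 7.93, 1.24, 23.1, 2.48, 0.52, 0.04 and 1.85 in clusters 1 to 7 in turn and 1.94 in the input. Cd55, a complement inhibitor, had an RPKM of 29.3, 4.81, 112, 6.47, 2.75, 2.82 and 16.8 in clusters 1 to 7 in turn and 35.6 in the input. Like Dpp4, both were highest in cluster 3 and, among the sorted libraries, next in cluster 1, with cluster 4 far lower. Mfap5, a microfibril protein, had an RPKM of 265.5, 15.0, 182, 174.5, 26.1, 0.32 and 89.6 in clusters 1 to 7 in turn and 129.8 in the input, closer to the order of Cd34.

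Of the 25 genes, 17 had a higher RPKM in cluster 3 than in cluster 1 beyond counting error, 7 a lower one and 1 was within it, and the counts were the same under TMM. The shares over the 12264 genes above the minimum with reads in either library were 19.1% higher and 49.7% lower, and under TMM 29.7% and 35.3%. Procr (4.34 times), Cd55 (3.81), Wnt2 (2.91), Ackr3 (2.41) and Smpd3 (6.72) were more than 2-fold higher in cluster 3 on RPKM + 1. Another 5 were more than 2-fold lower, Mfap4 (0.0403 times), Fbln1 (0.260), Col15a1 (0.348), Col14a1 and Gsn. That is 5 of 24 in each direction, against 2.84% and 5.69% of all genes. Under TMM the counts were 9 higher and 3 lower, against 3.52% and 4.26%. Against cluster 6, cluster 1 was higher for 19 of 23 (21.5% of all genes) and lower for Bmp7 and Smpd3 (5.82%). Cluster 3 was higher than cluster 6 for 20 of 24 (12.9%) and lower for the same 2 genes (5.9%). Under TMM cluster 1 was higher for 17 (11.4%) and lower for 2 (11.0%), and cluster 3 was higher for 20 (7.9%) and lower for 2 (9.82%).

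The families of the 10 genes shared their pattern in part. Of the 5 other class 3 semaphorins above the minimum, Sema3a, Sema3b, Sema3e and Sema3f were highest in cluster 3 (9.85% of all genes), as Sema3c was, and Sema3d in cluster 6 (7.1%). Sema3e had an RPKM of 4.59, 2.14, 18.9, 0.850, 1.44, 3.92 and 4.10 in clusters 1 to 7 in turn and 6.74 in the input. The 5 receptors above the minimum were spread differently. Nrp1 (14.9 RPKM, 4.45 in cluster 3) and Plxna2 were highest in cluster 4 (8.95% of all genes). Nrp2 was highest in cluster 6 (16.8 RPKM, 14.5 in cluster 3, against 7.1% of all genes). Plxna1 was highest in cluster 1 (21.3%) and Plxnd1 in cluster 7 (25.3%). Under TMM Plxna1 moved to cluster 4 (10.4%).

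Of 12 microfibril and elastic fibre partners of Fbn1, 5 were highest in cluster 4 (Mfap2, Eln, Ltbp2, Ltbp3 and Fbln5, against 8.95% of all genes), 3 in cluster 1 (Fbn2, Mfap5 and Ltbp4, against 21.3%) and 1 in cluster 3 (Emilin2, against 9.85%). Emilin1 and the cross-linking enzyme Lox were highest in cluster 6 (7.1%), and Ltbp1 in cluster 7 (25.3%). The counts were the same under TMM, where the shares in clusters 4, 1, 3, 6 and 7 were 10.4%, 9.98%, 10.1%, 20.9% and 17.1%. Elastin (Eln), whose fibres form on fibrillin microfibrils, had an RPKM of 106 in cluster 4 and 5.01 in cluster 3, where Fbn1 itself was highest. Of the other tenascins, Tnc (71.0 RPKM) and Tnn (121 RPKM) were highest in cluster 7, as 25.3% of all genes were (17.1% under TMM). Tnxb was highest in cluster 3, and Tnr was below the minimum. Of the 5 relatives of Dpp4 above the minimum, Fap, the closest, was highest in cluster 6 (53.9 RPKM, 46.7 in cluster 3, against 7.1% of all genes). Dpp7 was highest in cluster 3 (13.8 RPKM, 9.85% of all genes), as Dpp4 was. Dpp8, Dpp9 and Prep were highest in cluster 7 (25.3%), with Dpp8 and Dpp9 moving to cluster 6 under TMM (20.9%). Of the 2 lectins of the Cd248 group above the minimum, Thbd, or thrombomodulin, was highest in cluster 3 (38.6 RPKM, 36.9 in cluster 1, against 9.85% of all genes), as Cd248 was. The r of Thbd to the mean profile was 0.938. Cd93 was highest in cluster 7 (3.52 RPKM, against 25.3%).

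Abca8a lies on chromosome 11 beside other family A transporters. Abca8b had an RPKM of 10.3, 0.914, 1.08, 5.54, 0.966, 0.881 and 5.94 in clusters 1 to 7 in turn and 3.13 in the input. Abca9 had 8.69, 1.41, 1.49, 5.84, 2.46, 1.66 and 9.31 in clusters 1 to 7 in turn and 4.20 in the input. Both were thus high in clusters 1, 4 and 7 and low in cluster 3, as Abca8a was. Abca6 was also highest in cluster 1 (3.18 RPKM, against 21.3% of all genes), and Abca5 stayed below 2 in all sorted libraries. Because Abca8a and Abca8b share sequence, and how shared reads were counted is not given in the sources used here, the part of shared reads in their likeness was not tested.

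**Figure D4:**
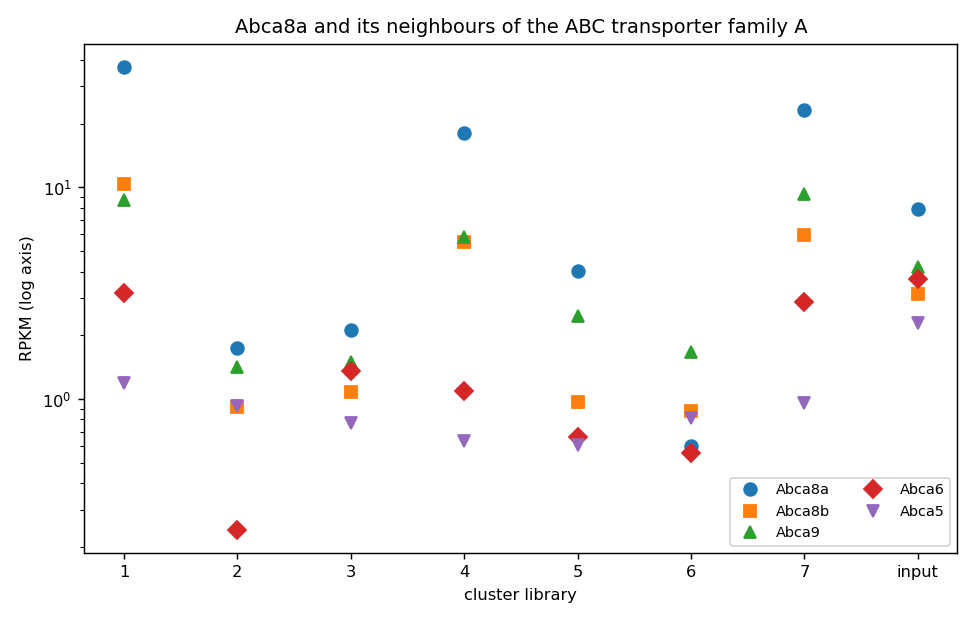
RPKM on a log axis of Abca8a and its 4 neighbours of the ATP-binding cassette family A in the 7 sorted libraries and the input, 1 library per point. Abca8a, Abca8b and Abca9 are high in clusters 1, 4 and 7, and Abca8a falls to 2.11 in cluster 3.

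Markers of other cells were summed over whole lists, since Cd34 and Dpp4 are also made elsewhere. The summed RPKM of the 8 endothelial markers was 22.2, 14.0, 18.3, 5.93, 20.0, 4.03 and 15.2 in clusters 1 to 7 in turn and 17.8 in the input, with Esam or Pecam1 the most abundant; under TMM the highest was cluster 5, at 27.0, with 20.1 in cluster 1. Cluster 1 was highest by total count for both this sum and Cd34, and clusters 4 and 6 had the lowest sums. The summed RPKM of the 6 T cell markers was 2.82, 4.22, 1.58, 1.68, 2.70, 2.43 and 3.79 in clusters 1 to 7 in turn and 11.3 in the input, with Lck the most abundant. Of these markers, Lck alone passed an RPKM of 2 in a sorted library, at 2.36 in cluster 2, so the sums of the sorted libraries lie near the floor. The input, highest for this sum, had the second-highest Dpp4 of the 8 libraries by total count and the one after cluster 1 under TMM. Cluster 3, highest for Dpp4, had the lowest sum, by a small margin to cluster 4. The part of T cells in the Dpp4 levels was not tested. Cd8a and Cd4 had 0 reads in cluster 5.

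The summed RPKM of the 8 osteoblast markers was 879.7, 7635, 25981, 2474, 9589.6, 25503 and 2807 in clusters 1 to 7 in turn and 976 in the input, with Bglap or Spp1 the most abundant. Clusters 3 and 6, with the highest osteoblast sums, lay second and last for the sum of the 10 genes. Bglap alone made 14020 of the cluster 3 sum. Bglap and Bglap2 were highest in cluster 3 (9.85% of all genes). Ibsp, Spp1, Sp7, Alpl and Dmp1 were highest in cluster 6 (7.1%) and Runx2 in cluster 2 (22.8%). The summed RPKM of the 7 pericyte and smooth muscle markers was 100.4, 75.3, 43.0, 64.4, 28.6, 50.9 and 108 in clusters 1 to 7 in turn and 33.6 in the input. That of the 10 reticular markers, led by Hp, was 167, 139, 109.8, 466, 205, 146 and 387 in the same order and 391.8 in the input. Cluster 4, with the highest reticular sum, followed clusters 1 and 3 for the sum of the 10 genes. The 6 pan-haematopoietic markers summed to 145 RPKM in cluster 3, the lowest, and to 530.4 in cluster 7, the highest sorted library, with 723 in the input. The 6 haematopoietic progenitor markers ran from 171 in cluster 1 to 904 in cluster 7, the 5 B cell markers from 37.7 in cluster 3 to 120.2 in cluster 7, the 6 neutrophil markers from 11031 in cluster 3 to 29504 in cluster 7 (under TMM the highest was cluster 5, at 36514, and cluster 6 passed cluster 7 for the progenitor markers, 873.7 to 873.3, and the B cell markers, 117 to 116), and the 4 erythroid markers matched from 841 in cluster 6 to 43223 in cluster 5. The part of these cells in the levels of the 10 genes was not tested.

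**Figure D5:**
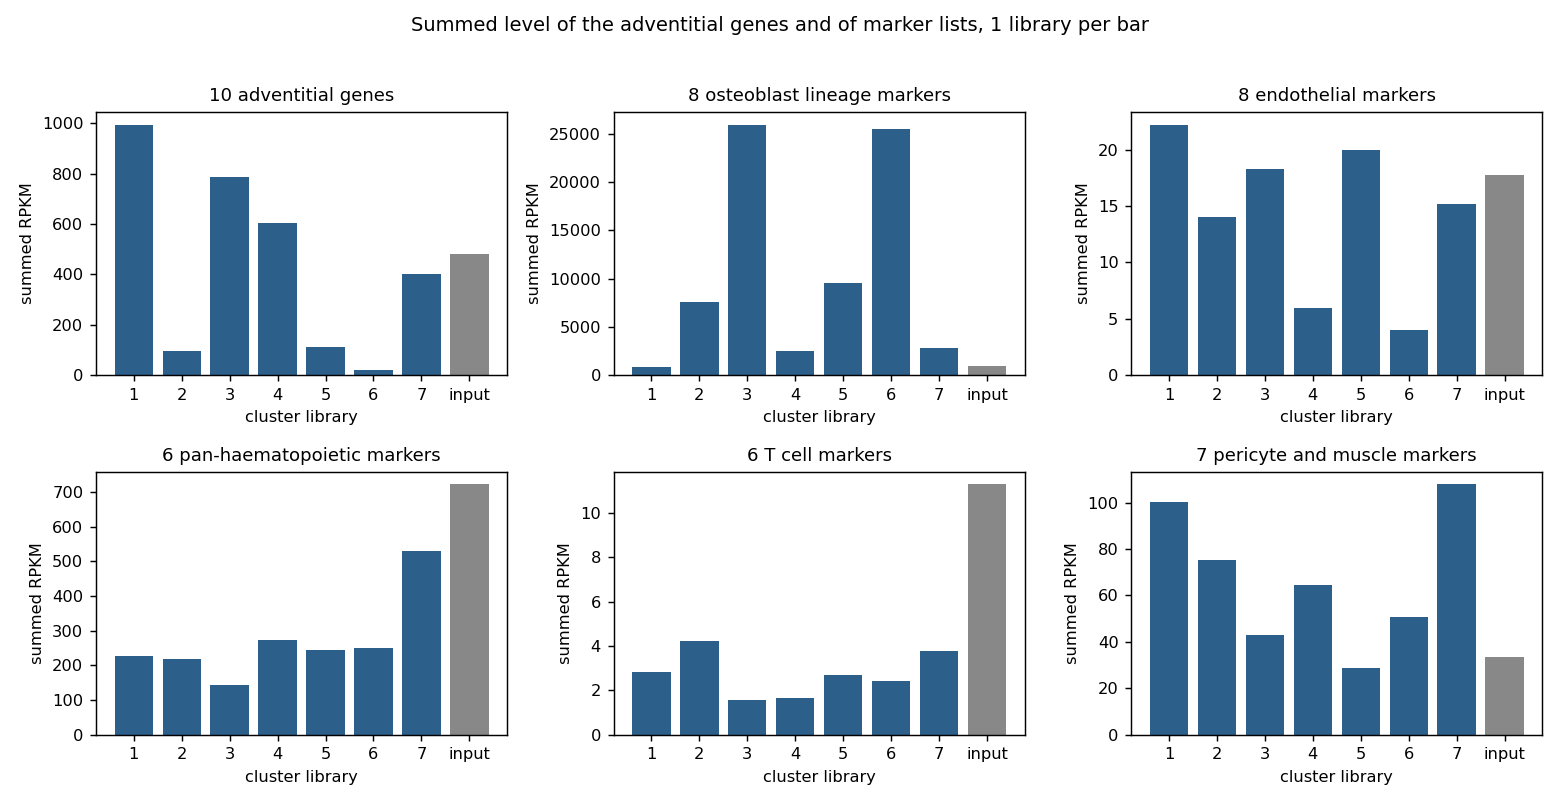
Summed RPKM of the 10 adventitial genes and of 5 marker lists, 1 library per bar and a separate linear axis from 0 for each list. Cluster 1 has the highest adventitial sum (995), clusters 3 and 6 have the highest osteoblast sums (25981 and 25503), and the T cell sum is highest in the input (11.3).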

How the data were processed

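Bone marrow stromal RNA was sequenced as 1 library for each of 7 sorted populations and the input. Per the labels and the study's methods, reads were trimmed at a Phred value of 20 and aligned with TopHat2 to mm9 in Partek Flow 2.2. The authors deposited raw read counts per gene with exon coordinates and exon length (in bases); the coordinates are those of GRCm38. The counting tool, the treatment of shared reads and strandedness are not given in the sources used here. The labels give 1 ug of total RNA from crushed marrow, and the study's methods a smaller input of sorted cells with polyA selection.

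RPKM was computed from the count, the exon length and the total count (pandas 2.3.3 and scipy 1.17.1 in Python 3.11.15). TMM factors came from edgeR 4.0.16 and size factors from DESeq2 1.42.0 (R 4.3.3), for scaling only. With 1 library per group no test was run. A gene was counted between 2 libraries when RPKM + 1 differed more than 2-fold and RPKM was above 2 in at least 1 of them. Genes were counted against the library holding most of the highest values; clusters 1 and 3 tied, so both were used. The text names the 10 genes, the genes of fixed lists (149 of 151 matched) and the 10 most like the mean profile. The members and lists were chosen with earlier results of these data known. The comparison of clusters 3 and 1 gene by gene, the rescaled counts of the other adventitial genes and the leaving out of cluster 5 from the highest and specific counts were chosen after seeing the data. The single-cell and chromatin libraries of the study were not used here.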

Additional observations from a re-analysis of the deposited data

How the results depend on the processing

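Of 394 values recomputed under TMM, DESeq2 size factors, a total without the 3 loci, equal depth, another pseudocount, threshold or filter, or with a library left out, 326 stayed within the limits set for them (1.5 times for a count, so that 5 to 4 is within it, the counting interval for a ratio, and the second decimal for the mean r), 64 moved and 4 reversed. The reversals were all of Clec3b, whose log2 difference between clusters 3 and 1 (-0.14) became 0.031 under TMM and 0.073 under DESeq2, so that cluster 1 over cluster 3 became -0.031 and -0.073. With RPKM above 2 required in all 7 sorted libraries, 1 gene was highest in cluster 1 and 2 in cluster 3, since fewer genes were tested. At 4-fold, the number more than that higher in cluster 1 was 1 against cluster 3, 1 against cluster 4, 0 against cluster 7 and 2 against the input, with 0 lower than in cluster 3; for cluster 3 it was 2 against cluster 4 (1 lower), 0 against cluster 7 and 1 against the input (0 lower), and 0 genes were specific to cluster 3. No share over all genes is given at 4-fold, so these counts cannot be set against genes in general. Under TMM, DESeq2 and the total without the 3 loci, 1 gene (Abca8a) was more than 2-fold lower in cluster 3 than in cluster 5, and under TMM and DESeq2 0 were lower than in the input. Of the other adventitial genes, 0 were highest in cluster 2 and 2 in cluster 6 under TMM and DESeq2. The mean r was 0.763 without the cluster 1 library, 0.872 without cluster 3, 0.803 without cluster 5, 0.798 with the input and 0.778 under TMM. Clec3b in cluster 6 rests on 16 reads. No paired analysis was possible because no population had a second library.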
